A study of Homo sapiens with 2 samples.

Results

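FNDC3B, NCEH1, ECT2 and GHSR are 4 protein-coding genes on one stretch of chromosome 3, and the places where GFI1 antibodies enriched DNA over and beside them in NB4 cells were examined. The peaks were selected by position: a peak was taken when its midpoint fell inside the hg38 span of one of these genes or within 20 kb of it. The stretch itself was chosen by the density of peaks in the same lists, so the number of peaks and of overlapping peaks is given as a description and carries no test. The rule took 13 of 7687 peaks from the ab21061 list and 15 of 7562 from the sc8558 list, 28 of 15249 in all. Of these, 12 and 14 belonged to FNDC3B. NCEH1 had 1 sc8558 peak, ECT2 had 1 ab21061 peak and GHSR had 0 from either antibody. Among the 4 genes only FNDC3B is therefore dense, and the data do not bear out a dense NCEH1.

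The study used chromatin immunoprecipitation with sequencing in NB4, an established cell line from acute promyelocytic leukemia with the PML-RARA fusion, grown in RPMI medium with serum and no drug named in the labels. There were 2 libraries, both from these cells, 1 with the antibody ab21061 and 1 with sc8558, which the labels describe as raised against different parts of GFI1. Neither antibody had a replicate, no control library was analysed here, and the labels do not say whether separate cultures were used. The labels conflict in places: the protocol names an antibody to PML/RARα, and the sc8558 sample carries GFI2 in its title, while both antibody fields name GFI1, which were followed. Each peak carries the authors' own score from the peak caller, which grows with the strength of evidence. The score depends on sequencing depth, which is unknown, so its level is not comparable between the libraries.

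GFI1 is a zinc-finger repressor of blood cell genes that brings histone demethylase and deacetylase complexes to DNA and is needed for neutrophil maturation. FNDC3B encodes a membrane-anchored protein with fibronectin type III domains, first studied in fat cell differentiation, and the gene is also known as a rare fusion partner of RARA in acute promyelocytic leukemia. NCEH1 encodes a hydrolase that releases cholesterol from its esters in macrophages. ECT2 encodes an exchange factor that activates RHOA at cell division, and GHSR encodes the receptor of the hormone ghrelin.

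Promoter sequence was available from RefSeq on GRCh38.p14. It is shown for the first annotated starts of FNDC3B and ECT2, where peaks lay, and for NCEH1 as a start without a peak. The second starts of FNDC3B and ECT2, with ab21061 peaks over all or some of the bases before them, are not shown. Each run is the 250 bases before the transcription start, 5′ to 3′ on the gene's own strand. FNDC3B at chr3:172039328-172039577 and ECT2 at chr3:172750476-172750725 lie on the plus strand, and NCEH1 at chr3:172711068-172711317 lies on the minus strand. Capitals mark matches to any of the 8 motifs searched.
FNDC3B: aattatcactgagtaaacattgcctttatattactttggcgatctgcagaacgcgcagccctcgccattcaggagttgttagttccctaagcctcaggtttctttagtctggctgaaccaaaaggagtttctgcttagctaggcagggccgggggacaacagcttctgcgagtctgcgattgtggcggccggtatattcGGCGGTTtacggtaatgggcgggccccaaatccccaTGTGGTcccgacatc
ECT2: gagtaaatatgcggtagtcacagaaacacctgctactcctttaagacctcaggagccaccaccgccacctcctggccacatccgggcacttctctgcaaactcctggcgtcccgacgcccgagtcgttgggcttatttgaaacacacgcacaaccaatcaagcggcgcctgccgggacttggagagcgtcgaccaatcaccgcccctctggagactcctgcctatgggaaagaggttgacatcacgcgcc
NCEH1: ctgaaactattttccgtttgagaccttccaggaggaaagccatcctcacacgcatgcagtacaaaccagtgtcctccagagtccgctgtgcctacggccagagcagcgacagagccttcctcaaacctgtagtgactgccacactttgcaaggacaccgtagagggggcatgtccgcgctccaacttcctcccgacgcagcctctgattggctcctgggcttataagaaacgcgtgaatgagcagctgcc

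Before the first FNDC3B start lay peaks of both antibodies, of which the sc8558 peak alone ran across the start. The ab21061 peak took in 87 of the 250 bases before it and the sc8558 peak all 250. A second annotated FNDC3B start, with its 250 bases at chr3:172040281-172040530, lay fully under an ab21061 peak and 0.422 kb from the nearest sc8558 peak. The bases before the first ECT2 start lay fully under an ab21061 peak, as did 45 of the 250 before its second start, and the nearest sc8558 peak was 120 kb away. For NCEH1 the nearest peaks to the 250 bases before its start were 38.7 kb (ab21061) and 81.0 kb (sc8558) away, and for GHSR they were 63.4 and 63.5 kb away.

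Both strands of the 6 promoter windows of the 4 genes were searched with 8 short motifs. The GFI1 core was written as AAATCA and its longer form, which contains the core, as TAAATCAC. For RUNX factors the letters were TGTGGT. Those for ETS factors were CAGGAAG. C/EBP factors were searched as TTGCNNAA. The AP-1 letters were TGANTCA. Factors of the GATA family were searched as AGATAA. The MYB letters were AACNGNC. The first FNDC3B window held a RUNX match from 15 to 10 bases before the start and a MYB match on the minus strand, and the second held a MYB match. Among 34943 promoter windows of the same length, 11.0% held the RUNX letters and 26.9% the MYB letters. The GFI1 core was in none of the 6 windows and in 11.6% of all windows, and its longer form in 0.555%. The other 4 motifs had no match in these 6 windows, with shares of 10.5% (ETS), 9.06% (C/EBP), 6.59% (AP-1) and 9.19% (GATA) over all windows. A match is a string of letters, and no match says only that these letters were not in the window. With shares of this size, 6 windows are too few to read anything from a match or its absence.

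FNDC3B, gene ID 64778, spans chr3:172039578-172401669 on the plus strand and is 362.1 kb long. Both antibodies marked its first part and left the remainder almost bare. All 12 ab21061 peaks and 13 of 14 sc8558 peaks had midpoints no more than 110 kb past the start. The 9 regions shared by the antibodies, each made of 1 peak from either list, ran from chr3:172038435 to chr3:172141230, over 103 kb, and the last ended 101.7 kb into the gene. Over the following 260.4 kb, 71.9% of the gene's length, there was 1 further ab21061 peak and 1 further sc8558 peak, neither of them shared. Exons and introns could not be separated, because the gene table gives spans only.

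**Figure D1:**
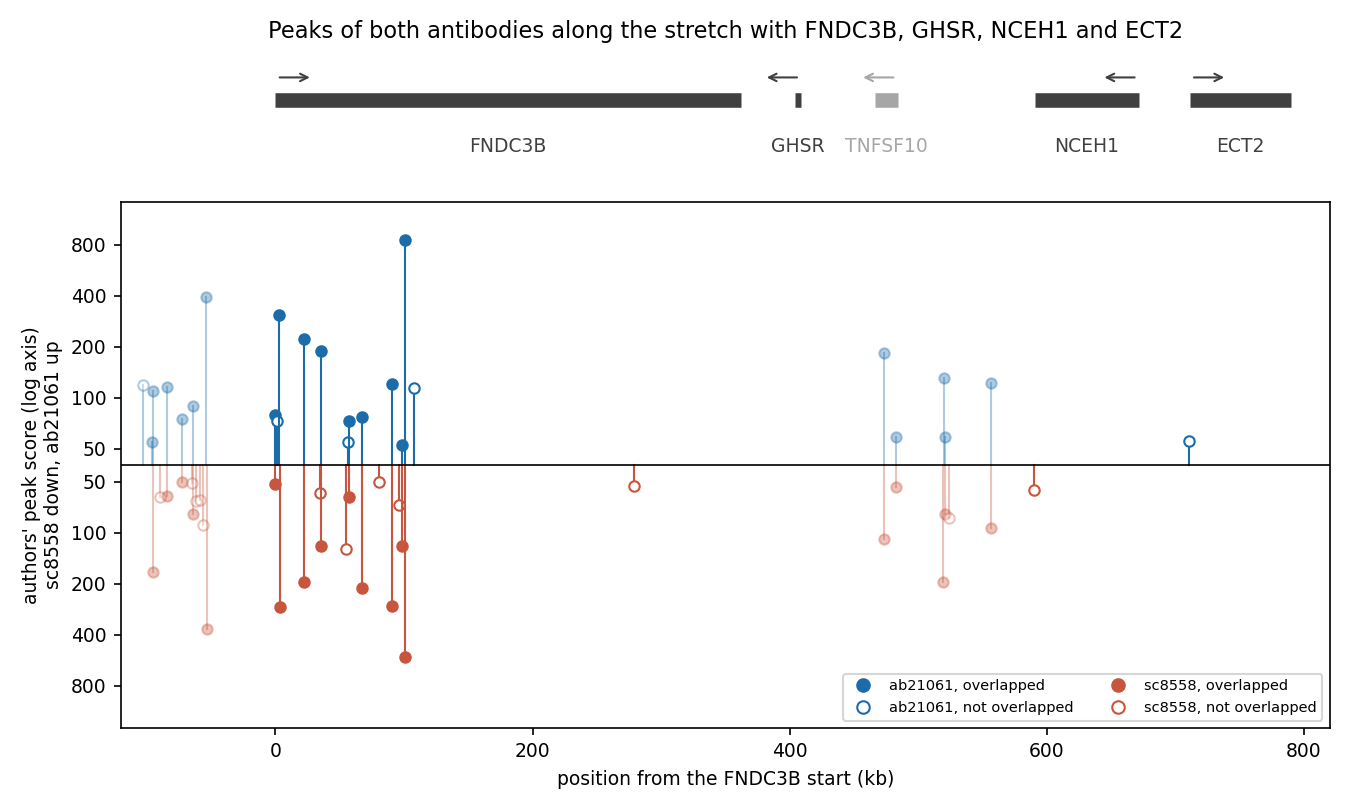
Peaks of both antibodies by distance from the FNDC3B start in kb, with the authors' score on a log axis (ab21061 upwards, sc8558 downwards), filled circles for peaks overlapped by the other antibody and open circles for those that were not. Dark symbols are the 28 peaks of the 4 genes, pale symbols are other peaks of the stretch, bars at the top are gene spans and arrows show the direction of transcription. The peaks of FNDC3B gather in the first part of the gene, while NCEH1 and ECT2 have 1 open circle each and GHSR has none.

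The strongest region lay 100.8 kb into the gene, at chr3:172139619-172141230. It scored 853.3 with ab21061, ranking 66 of 7687, and 542.81 with sc8558, ranking 161 of 7562. The region next to the start, at chr3:172041973-172043436 with its centre 3.1 kb into the gene, scored 307.58 and 275.43 and ranked 515 and 591. These were the regions of the gene with the best ranks in either list, and they sat near either end of the marked part.

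Between them lay 6 regions of lower score. At 22.1 kb, chr3:172061134-172062280 scored 221.47 with ab21061 and 196.15 with sc8558. At 35.2 kb, chr3:172074230-172075342 scored 188.91 and 119.91, and at 57.5 kb, chr3:172096675-172097452 scored 72.38 and 61.62. In each of these the ab21061 score was the larger number, as in the regions named before.

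Further in, the order of the numbers was turned. At 67.3 kb, chr3:172106124-172107591 scored 77.22 with ab21061 and 211.25 with sc8558. At 90.6 kb, chr3:172129166-172131109 scored 119.57 and 271.16. At 98.3 kb, chr3:172137299-172138395 scored 52.56 and 120.05. The ratio of the sc8558 to the ab21061 score was 2.74, 2.27 and 2.28 in these regions, which follow each other along the gene, against a median of 0.982 over 4760 shared regions made of 1 peak from each list. Of those regions 99.5%, 98.5% and 98.6% had a lower ratio. These shares were taken over regions of all scores and were not matched on score. The regions at 67.3, 90.6 and 98.3 kb were singled out after their ratios were seen, so high shares follow in part from that choice. Both lists begin at 50.01, so a region with an ab21061 score as low as 52.56 could hardly have a low ratio. The strongest region, only 1.22 kb beyond the region at 98.3 kb, had a ratio of 0.636, and 11.8% of regions had a lower one. It was not alone in this, since the region at 35.2 kb had 0.635 and that across the start 0.659. With 1 library per antibody there is no measure of how far such a ratio varies between repeats, and no test was made.

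The ninth shared region lay across the gene's start, at chr3:172038435-172039858, and was weak. It scored 78.59 with ab21061 and 51.83 with sc8558, close to the lowest score in either list, 50.01. The ab21061 peak ended 5′ of the start, whereas the sc8558 peak ran across it, and their midpoints were 405 bp apart.

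**Figure D2:**
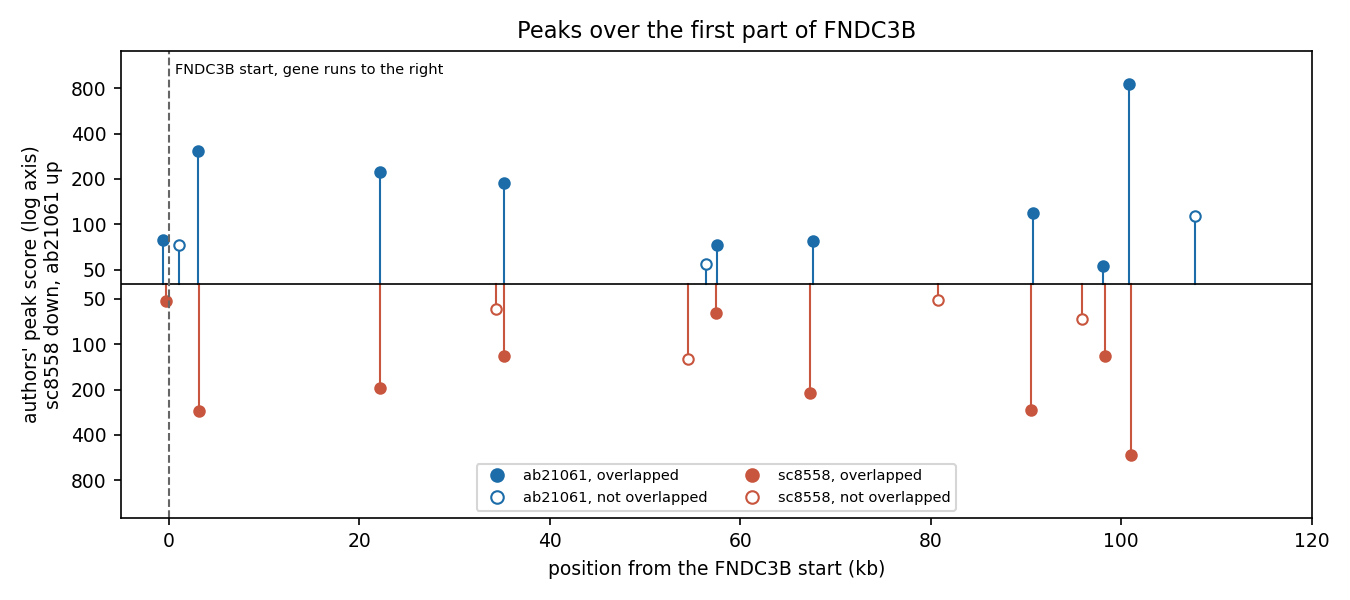
The same peaks over the first part of FNDC3B, by distance from its start in kb, with the authors' score on a log axis (ab21061 upwards, sc8558 downwards, filled where the other antibody overlapped). Paired filled circles stand at 9 places, the highest at 100.8 kb with scores of 853.3 and 542.81, and the weak pair at the start scored 78.59 and 51.83.

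Paired peaks shared bases to differing degrees. Overlap ran from 62.7 to 100% of the ab21061 peak and from 52.5 to 100% of the sc8558 peak. Midpoints of the pairs were 4 to 405 bp apart with a median of 143.5 bp, wider than the median of 66 bp over all 4760 such pairs. Of those 4760 pairs, 79.0% had midpoints closer than 143.5 bp. The regions at 67.3 and 98.3 kb, with midpoints 329.5 and 253.5 bp apart, were among those in which the sc8558 peak was also the broader one, at 1468 against 771 bp and 1030 against 657 bp. Gaps between neighbouring shared regions ran from 1.22 to 21.58 kb with a median of 10.3 kb. Across the 9 regions the scores of the antibodies had a Spearman rho of 0.633, given as a description, since all points share the same 2 libraries.

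**Figure D3:**
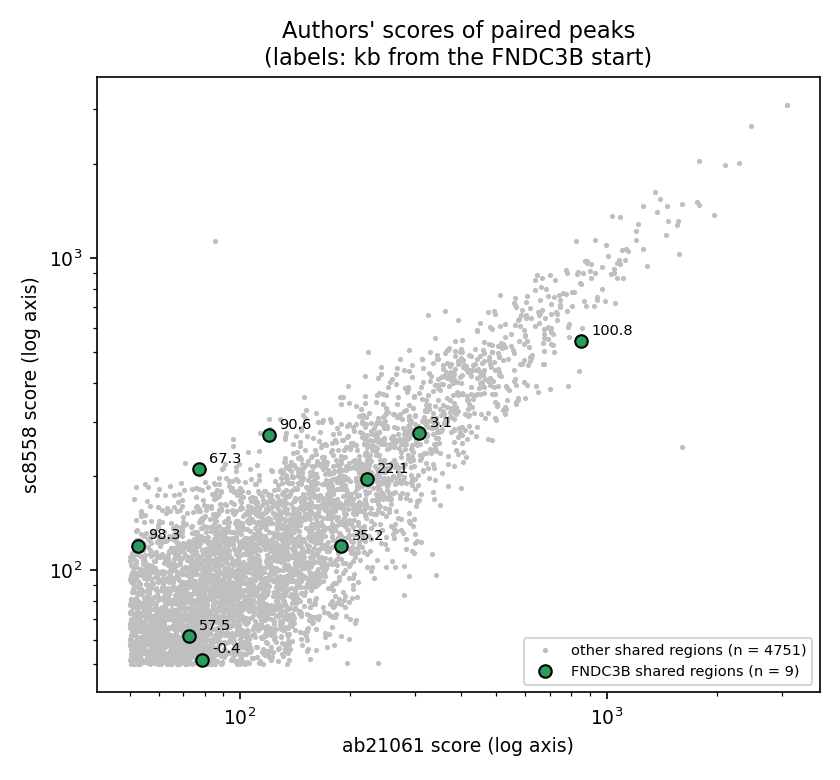
The authors' ab21061 score against the sc8558 score, both on log axes, for shared regions made of 1 peak from each list: grey points are 4751 regions elsewhere, and green circles are the 9 regions of FNDC3B, labelled by their distance from its start in kb. The regions at 67.3, 90.6 and 98.3 kb stand on the upper side of the grey points, and those at -0.4, 35.2 and 100.8 kb on the lower side.

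In the 4 genes together 9 of 13 ab21061 peaks were overlapped by sc8558, 69.2% with an exact Clopper-Pearson 95% interval of 38.6 to 90.9, against 63.7% over the whole list. Of 15 sc8558 peaks 9 were overlapped by ab21061, 60.0% with an interval of 32.3 to 83.7, against 65.0% over that list. The intervals cover counting error only, and both hold the share of the whole list. Since shared regions led to the choice of this stretch, nothing is read from these shares. Scores of 100 or more were held by 6 of 13 ab21061 peaks and 8 of 15 sc8558 peaks, 46.2% and 53.3%, where the lists had 37.7% and 37.4%. Median scores were 78.59 against 82.37 in the ab21061 list and 119.9 against 81.75 in the sc8558 list. Median widths were 1008 against 776 bp and 801 against 745.5 bp.

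Peaks found with a single antibody numbered 4 for ab21061 and 6 for sc8558, and several stood right beside a peak of the other list. At the second FNDC3B start an ab21061 peak, chr3:172039905-172041303, scored 73.23 and began 46 bp beyond the end of an sc8558 peak. An sc8558 peak at chr3:172073726-172074200 scored 58.42 and lay 29 bp from the ab21061 peak of the region at 35.2 kb. Another at chr3:172093736-172094511 scored 125.18, and 1.2 kb from it an ab21061 peak at chr3:172095711-172096240 scored 54.51. The latter was 0.434 kb from the sc8558 peak of the region at 57.5 kb. An sc8558 peak at chr3:172135093-172135734, with a score of 68.4, had an ab21061 peak 1.56 kb away. In all, 2 of 4 such ab21061 peaks and 3 of 6 sc8558 peaks had a peak of the other antibody within 2 kb, where the whole lists gave 11.0% and 10.7% of peaks without overlap. Peaks of this gene are dense by choice, so near neighbours follow from the rule to an extent that was not measured. Nothing is read from these counts.

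Other single-antibody peaks of FNDC3B stood apart. The ab21061 peak at chr3:172146760-172147767 scored 113.73, ranking 2435, and the nearest sc8558 peak was 5.59 kb away. Over the whole ab21061 list 73.8% of 317 peaks scoring from 110 to 120 were overlapped. Among all single-antibody sc8558 peaks here the highest score was 125.18, at the peak named above 1.2 kb from an ab21061 peak. Of 276 sc8558 peaks scoring from 120 to 130, 87.3% were overlapped. An sc8558 peak at chr3:172120104-172120683 scored 50.5, and the nearest ab21061 peak was 8.86 kb away. The lone peak in the far part of the gene, chr3:172318066-172318491 at 278.7 kb from the start, scored 53.05 with sc8558 and was 170 kb from any ab21061 peak.

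NCEH1, gene ID 57552, spans chr3:172630249-172711067 on the minus strand, and 0 peaks of either list had a midpoint inside its 80.8 kb. The single sc8558 peak assigned to it, chr3:172629334-172630017, scored 55.94 and ranked 6398 of 7562. It lay just beyond the finish of the gene, 574 bp from its lower coordinate and 81.39 kb from its start, and the nearest ab21061 peak was 32.7 kb away. ECT2, gene ID 1894, spans chr3:172750726-172829265 on the plus strand. Its single ab21061 peak, chr3:172750030-172750796, scored 55.42 and ranked 6566 of 7687, and its midpoint lay at -0.31 kb from the start. GHSR, gene ID 2693, spans chr3:172443291-172448456 and had no peak within 20 kb. Both single peaks of NCEH1 and ECT2 had scores close to the lowest listed, and depth is unknown, so a peak missing from the other list does not show that nothing was bound there.

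For FNDC3B the limit of 20 kb added few peaks, but it left out a series of shared regions before the start. The peaks outside its span but within the limit were the pair across its start, at 0.7 and 0.2 kb by midpoint. The nearest peaks beyond the limit formed a shared region at chr3:171984382-171987247, 53.8 kb before the start, which scored 390.37 and 371.95. It ended a series of 5 shared regions between -95.5 and -53.8 kb from the start, outside the rule. For NCEH1 the nearest beyond the limit was a shared region 34.0 kb past its finish, chr3:172595810-172596705, with scores of 122.03 and 93.39. Between GHSR and NCEH1 lies TNFSF10, which encodes the death ligand TRAIL and is none of the 4 genes. It held 2 shared regions, at chr3:172512138-172512958 with scores of 184.52 and 109.64 and at chr3:172522119-172522639 with 58.87 and 54.21. The next protein-coding genes on either side, TMEM212 and SPATA16, held 0 shared regions inside the gene, and TMEM212 had 1 within 20 kb.

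Position along the gene was not used in choosing these peaks and was compared with other long genes. All 8 shared regions with their midpoint in FNDC3B lay in the first 33.3% of its length, from 0.863 to 27.9% of the way along. The comparison took 351 other protein-coding genes of at least 200 kb with a shared region and a known strand. In these, 229 of 603 region-gene pairs, 38.0%, lay in that part. A region inside several such genes counts once for each. Regions of 1 gene are not replicates, the comparison was made after the positions had been seen, and no test was made. Strand was known for 15842 of 20033 protein-coding genes.

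**Figure D4:**
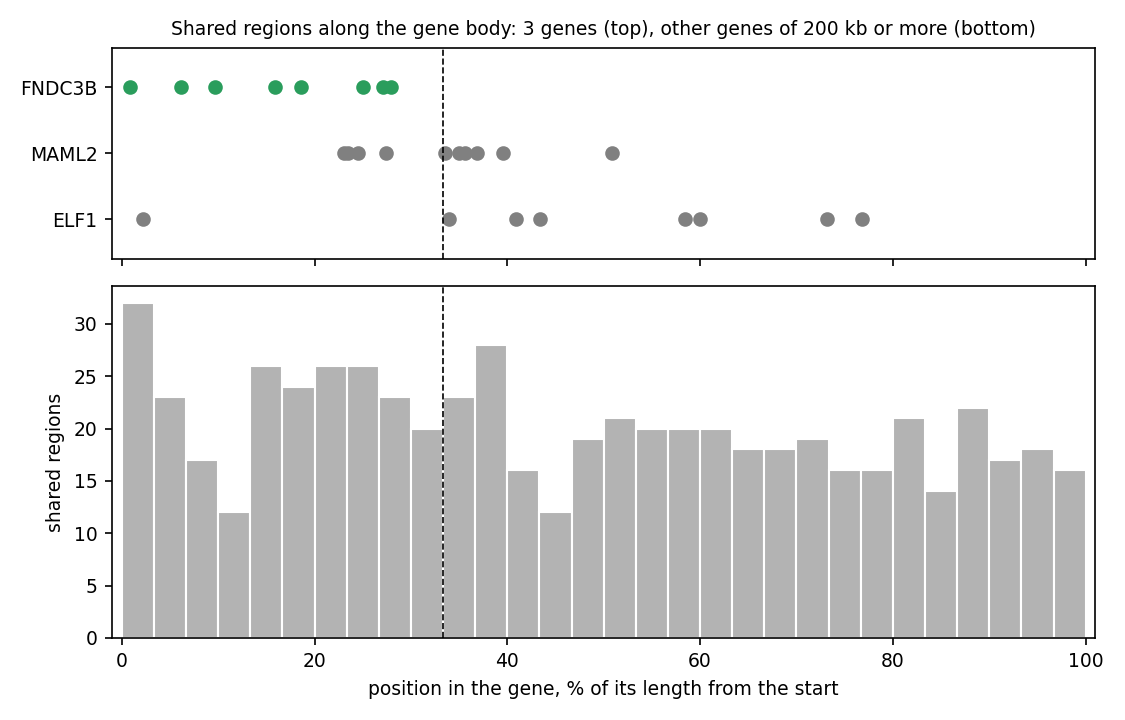
Position of shared regions along the gene as a percentage of its length from the start. The top shows FNDC3B, MAML2 and ELF1 with 1 point per region. The bottom is a histogram over 603 region-gene pairs in other genes of at least 200 kb. The dashed line ends the first 33.3%, which holds all 8 points of FNDC3B, 4 of 10 of MAML2 and 1 of 8 of ELF1. Further MAML2 points stand just past the line, from 33.5 to 39.6%.

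The genes most like FNDC3B in the number of shared regions inside the gene, over the 2 libraries, were ELF1 with 8 and MAML2 with 10. ELF1, an ETS factor gene, is 129.5 kb long and had 1 of its 8 in the first 33.3% of the gene. MAML2, which encodes a Notch coactivator, is 366.6 kb long, near the length of FNDC3B, and had 4 of its 10 there. Further MAML2 regions lay just past that limit, from 33.5 to 39.6% of its length. Apart from that at 50.9%, all lay between 23.1 and 39.6%, so regions gathered in an early stretch were not particular to FNDC3B. Apart from these, no protein-coding gene had 8 or more. Per 100 kb FNDC3B had 2.21 shared regions. Among 1399 genes of at least 200 kb, 990 had none, and 4 had more per 100 kb than FNDC3B: MAML2 (2.73), RBM47 (2.41), MBNL2 (2.38) and MBNL1 (2.25), the last pair encoding splicing regulators. These genes were named for their counts, and the counts are a description.

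**Figure D5:**
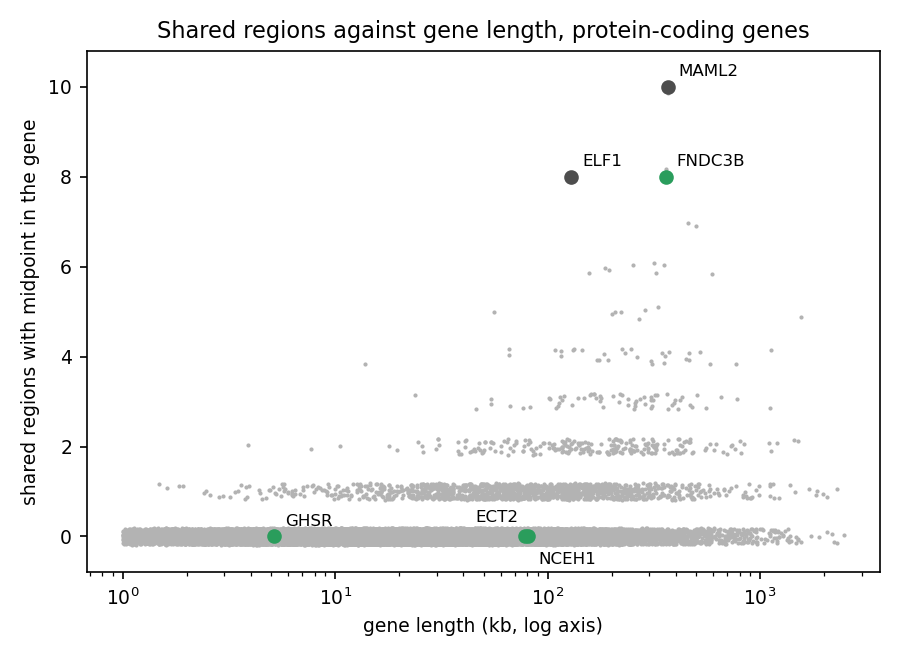
Number of shared regions with midpoint in the gene against gene length in kb on a log axis, 1 point per protein-coding gene of at least 1 kb, with points moved slightly up or down so that they can be told apart. FNDC3B and ELF1 stand at 8 and MAML2 at 10, while NCEH1, ECT2 and GHSR stand at 0.

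Genes related to the 4 were examined from lists of family and pathway members, counting the span and 20 kb on each side. By this measure 15.9% of 20033 protein-coding genes had a shared region. Of 10 FNDC family genes 3 had one: FNDC3B, its closest paralog FNDC3A, and FNDC7. The best region of FNDC3A, inside the gene, scored 140.97 with ab21061 and 115.38 with sc8558. That of FNDC7 lay 9.5 kb outside the gene and scored 151.83 and 149.31. FNDC3A had 2 shared regions in this window and FNDC3B had 9.

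Of 21 genes of cholesterol ester turnover, the process in which NCEH1 acts, 6 had a shared region, although NCEH1 did not. LIPA, the lysosomal acid lipase that cleaves cholesterol esters, had a region inside the gene with scores of 776.7 and 895.56. SOAT1, which makes cholesterol esters, had 2 regions, the better scoring 280.62 and 219.33. ABCA1, a cholesterol exporter, had a region that scored 73.33 and 71.92. PLIN2, which coats lipid droplets, and CES1, a carboxylesterase, had regions 15.3 and 10.0 kb outside the gene.

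Of 20 genes of cytokinesis and RHOA activation, the process in which ECT2 acts, 4 had a shared region and ECT2 did not. RAC1, a small GTPase gene, had 2, the better scoring 170.93 and 158.85 at 0.8 kb outside the gene. CEP55, which acts at the midbody, had a region inside the gene that scored 55.51 and 96.01. INCENP, a chromosomal passenger gene, and MYH9, a nonmuscle myosin gene, had regions 14.8 and 17.6 kb outside. Of 13 genes of the ghrelin axis 1 had a shared region, AGRP, which encodes an appetite neuropeptide, 5.6 kb outside the gene with scores of 203.78 and 138.24. The median number of shared regions per gene was 0 in every list. FNDC3B, whose peaks led to the choice of this stretch, is counted in its own family, and of the other 9 genes there 2 had a shared region. Lists of 10 to 21 genes of unlike lengths allow no call from these counts.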

How the data were processed

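Peak lists of 2 libraries were analysed, 1 per antibody, grouped by the antibody label. The submitters' processing notes name hg38, the aligner Bowtie2 (2.2.9) and the peak caller MACS (1.4.2). Options, read filters and the control were not given in the sources used here. Each score deposited by the authors belongs to a single peak. Scores ran from 50.01 to 3100, and peaks were listed per library. Depth is unknown.

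Genes, strands and promoters came from RefSeq on GRCh38.p14, which shares its chromosome coordinates with hg38. Overlap was counted from 1 bp, and shared regions are merged overlapping peaks. Position along genes used spans of at least 200 kb. Planted overlaps and motifs were tested on simulated data. No genome sequence was used, so motifs were searched in promoters only. Genes were named by rule: the 4 genes, their shared and single peaks, the genes between and next to them, genes with as many shared regions as FNDC3B, and up to 6 genes per list by the lower score of their best region. The 4 denser long genes were named after their values were seen. Of the list genes this rule names, 1 is not reported here. The genes and lists were chosen with earlier results of these data known. Scripts ran in Python 3.11.15 with pandas 2.3.3, numpy 2.4.6, matplotlib 3.10.9 and scipy 1.17.1.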

Additional observations from a re-analysis of the deposited data

How the results depend on the processing

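No paired analysis was possible because each antibody had a single library and no test was made. A score of 100 or more left 6 ab21061 and 8 sc8558 peaks at the 4 genes and 5 shared regions, all 5 in the first 33.3% of FNDC3B. With that score in both lists, 2 genes of cholesterol ester turnover and 1 of cytokinesis had a shared region. Fewer peaks enter by construction. Over gene spans alone, 2 FNDC family, 4 cholesterol ester turnover, 2 cytokinesis and 0 ghrelin axis genes had one, since the window is smaller. Alternatives that asked for 50% overlap of both peaks or midpoints within 500 bp gave the same 9 overlapped peaks per list as a count. Position along the gene, with its alternatives, was added after seeing the data. Of region-gene pairs, 40.7% lay in that part in genes of at least 100 kb and 40.5% at a score of 100 or more. The median ab21061 score was 113.7 over gene spans alone, where 11 peaks enter. Unknown depth limits any reading of peaks seen with a single antibody.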
